A study of Mus musculus with 4 samples.

Results

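The imprinted growth genes described here are H19, Igf2, Dlk1, Meg3, Igf2r, Grb10, Peg3, Mest, Gnas and Plagl1, 10 mouse genes chosen by name for their place in the imprinted growth network. ATAC-Seq, which reads out the DNA that a transposase can reach in chromatin, was performed on sorted bone marrow hematopoietic stem cells that the labels call ltHSC and the study's text calls HSPCs. A region belonged to a gene when a deposited peak of any library overlapped the gene body or the 10 kb on either side, and peaks sharing at least 1 bp across libraries were merged. The members' windows held 199 regions of 337776 in all, and 82 of 137553 regions were found in at least 2 libraries. All 10 genes had at least 1 region found in every library.

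The 2 control libraries came from Cpt1a fl/fl mice, labelled WT, and the 2 KO libraries from Cpt1a Δ/Δ mice, labelled Cpt1a-KO. Cpt1a encodes the mitochondrial outer membrane enzyme that commits long-chain fatty acids to import for oxidation. In the KO, Vav1-Cre removed the floxed Cpt1a, so the deletion covered all blood cells descending from Vav1-expressing cells and was not limited to stem cells. The mice were adults on a C57BL/6 background. How many animals went into each library is not given in the sources used here, so the spread between 2 libraries of a genotype may be partly technical.

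Imprinted genes are transcribed mainly from the maternal or the paternal chromosome, according to DNA methylation set in the egg or the sperm at imprinting control regions. Paternally expressed genes such as Igf2, Dlk1, Peg3, Mest and Plagl1 mostly favor growth, whereas maternally expressed genes such as H19, Igf2r and Meg3 mostly restrain it. In the hematopoietic stem cell this network, in particular H19 with Igf2 and Dlk1 with Meg3, is known for its part in keeping long-term stem cells quiescent. Peak lists carry no alleles, so a region seen here could lie on either parental chromosome or on both.

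RefSeq promoter windows, running from 250 bases before to 50 bases after a listed start (GRCm38.p6, the mm10 build of the peaks), were found for 9 of the 10 genes, 19 windows in all, and H19 had no entry. They are shown for 4 of the 6 genes whose start lay in a region of all 4 libraries (Igf2, Grb10, Mest and Plagl1, as examples) and for the pair Dlk1 and Meg3, whose listed starts did not. Capitals mark, on either strand, the hexamer TGCCGC that the imprinting factor ZFP57 recognizes when methylated, and the core GGNGGCAG of the insulator protein CTCF, which may overlap each other. The windows are Igf2 chr7:142658755-142659054 (minus strand), Grb10 chr11:12037371-12037670 (minus), Mest chr6:30737800-30738099 (plus), Plagl1 chr10:13090582-13090881 (plus), Dlk1 chr12:109452573-109452872 (plus) and Meg3 chr12:109540746-109541045 (plus).
Igf2: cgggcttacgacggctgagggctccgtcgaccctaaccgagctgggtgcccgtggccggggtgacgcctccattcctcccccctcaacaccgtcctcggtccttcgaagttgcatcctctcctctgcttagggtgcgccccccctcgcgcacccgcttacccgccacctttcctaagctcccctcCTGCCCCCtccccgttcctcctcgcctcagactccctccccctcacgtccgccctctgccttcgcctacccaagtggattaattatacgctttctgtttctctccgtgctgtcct
Grb10: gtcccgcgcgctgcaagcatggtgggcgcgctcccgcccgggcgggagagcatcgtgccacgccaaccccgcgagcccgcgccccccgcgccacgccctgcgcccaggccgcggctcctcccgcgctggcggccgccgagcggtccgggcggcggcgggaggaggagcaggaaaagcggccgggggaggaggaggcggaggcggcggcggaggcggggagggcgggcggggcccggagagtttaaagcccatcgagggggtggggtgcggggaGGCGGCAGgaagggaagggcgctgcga
Mest: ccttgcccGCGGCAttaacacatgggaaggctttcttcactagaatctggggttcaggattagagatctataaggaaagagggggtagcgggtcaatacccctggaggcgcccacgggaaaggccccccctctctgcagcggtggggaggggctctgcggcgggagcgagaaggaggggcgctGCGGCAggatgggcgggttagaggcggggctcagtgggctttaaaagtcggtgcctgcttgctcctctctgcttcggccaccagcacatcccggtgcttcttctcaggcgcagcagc
Plagl1: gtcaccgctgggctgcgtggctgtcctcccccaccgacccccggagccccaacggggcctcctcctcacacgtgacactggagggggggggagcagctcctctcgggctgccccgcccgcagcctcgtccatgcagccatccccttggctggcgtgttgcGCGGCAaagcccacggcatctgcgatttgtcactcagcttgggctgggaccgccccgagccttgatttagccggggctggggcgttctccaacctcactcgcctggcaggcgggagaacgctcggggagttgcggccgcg
Dlk1: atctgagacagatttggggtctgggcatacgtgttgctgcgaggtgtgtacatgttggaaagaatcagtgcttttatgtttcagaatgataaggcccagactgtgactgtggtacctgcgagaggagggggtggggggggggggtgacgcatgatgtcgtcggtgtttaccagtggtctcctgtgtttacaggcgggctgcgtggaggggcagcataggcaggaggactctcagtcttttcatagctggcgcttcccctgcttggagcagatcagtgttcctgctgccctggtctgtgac
Meg3: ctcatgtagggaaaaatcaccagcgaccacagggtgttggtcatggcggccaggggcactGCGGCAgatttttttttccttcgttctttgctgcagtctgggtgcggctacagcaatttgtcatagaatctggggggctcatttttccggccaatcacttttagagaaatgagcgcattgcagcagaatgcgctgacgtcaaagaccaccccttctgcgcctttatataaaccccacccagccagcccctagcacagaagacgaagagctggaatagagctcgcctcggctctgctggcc

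The members' promoters were rich in CpG, the dinucleotide at which imprints are written. The 19 windows had a median of 16.0 CpG, against 7.0 over all 32619 promoter windows examined. Grb10 had 45 CpG and Plagl1 26, whereas Dlk1 had 9. The ZFP57 hexamer was in 31.6% of the members' windows and 11.7% of all windows, and the CTCF core in 15.8% and 12.7%. The Mest window held 2 ZFP57 hexamers, those of Meg3 and Plagl1 1 each, and in the Grb10 window the single hexamer lay inside the single CTCF core. Of the members' windows, 10 (52.6%) overlapped a region found in all 4 libraries, against 15568 of all windows (47.7%). By gene, 6 of 9 members (66.7%) had such a start, Igf2, Igf2r, Grb10, Mest, Gnas and Plagl1, against 13313 of 26794 genes (49.7%). A gene counted when any of its listed starts did, which favors genes with more starts. The members had 19 windows for 9 genes, against 32619 windows for 26794 genes. Windows of a gene can overlap each other, and a motif match is a description of letters only.

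Depth could not be read from the files, which hold peaks and no read counts. The libraries had 161962 to 196570 peak intervals, and the share of summits whose −log10 q reached 5 was 42.5% and 46.8% in the controls, against 40.5% and 35.1% in KO. At the start of stem cell marker genes, 5 of 5 with a listed start had a peak in all 4 libraries, at percentiles of 63.1 to 98.0, Kit among them. Of 8 markers of other blood cells with a listed start, 4 (Cd79a, Itgam, Pf4 and Itga2b) had a peak in all 4 libraries, 2 (Cd3d and Ly6g) had none in any, and the values ran from 14.7 to 89.9. Among these 4, both KO libraries lay above both controls at the myeloid gene Itgam, with 81.5 and 68.1 in the controls and 87.2 and 85.2 in KO, while the genotypes overlapped at the other 3. Cd79a, of the B lineage, had 28.2 and 53.3 against 72.1 and 46.4, the platelet factor gene Pf4 88.2 and 83.9 against 85.0 and 79.3, and Itga2b 89.8 and 89.0 against 87.3 and 89.9. Of the stem cell markers, Slamf1 was higher in both KO libraries, with 63.1 and 64.8 against 81.3 and 71.0. The part of other cells in the results below was not tested. The Cpt1a window held 18 regions in at least 2 libraries, 11 of them in all 4, and peaks there do not check the deletion.

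Most member regions found in at least 2 libraries were found in all of them, at a share near that of the whole peak set. The members' windows held 105 and 91 regions in the controls, against 100 and 97 in KO. Of the 82 regions found in at least 2 libraries, 46 were in all 4 (56.1%, against 58.4% of all regions), 20 in 3 and 16 in 2. A region was called only in a genotype when both of its libraries had a peak and neither of the others did. Only in control were 6 member regions (7.32%, background 6.05%), and only in KO were 5 (6.10%, background 3.47%). With counts this small, a share within a few regions of the background is not a result about these genes. The remaining 117 of the 199 regions (58.8%, against 59.3% of all) were in a single library.

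**Figure D1:**
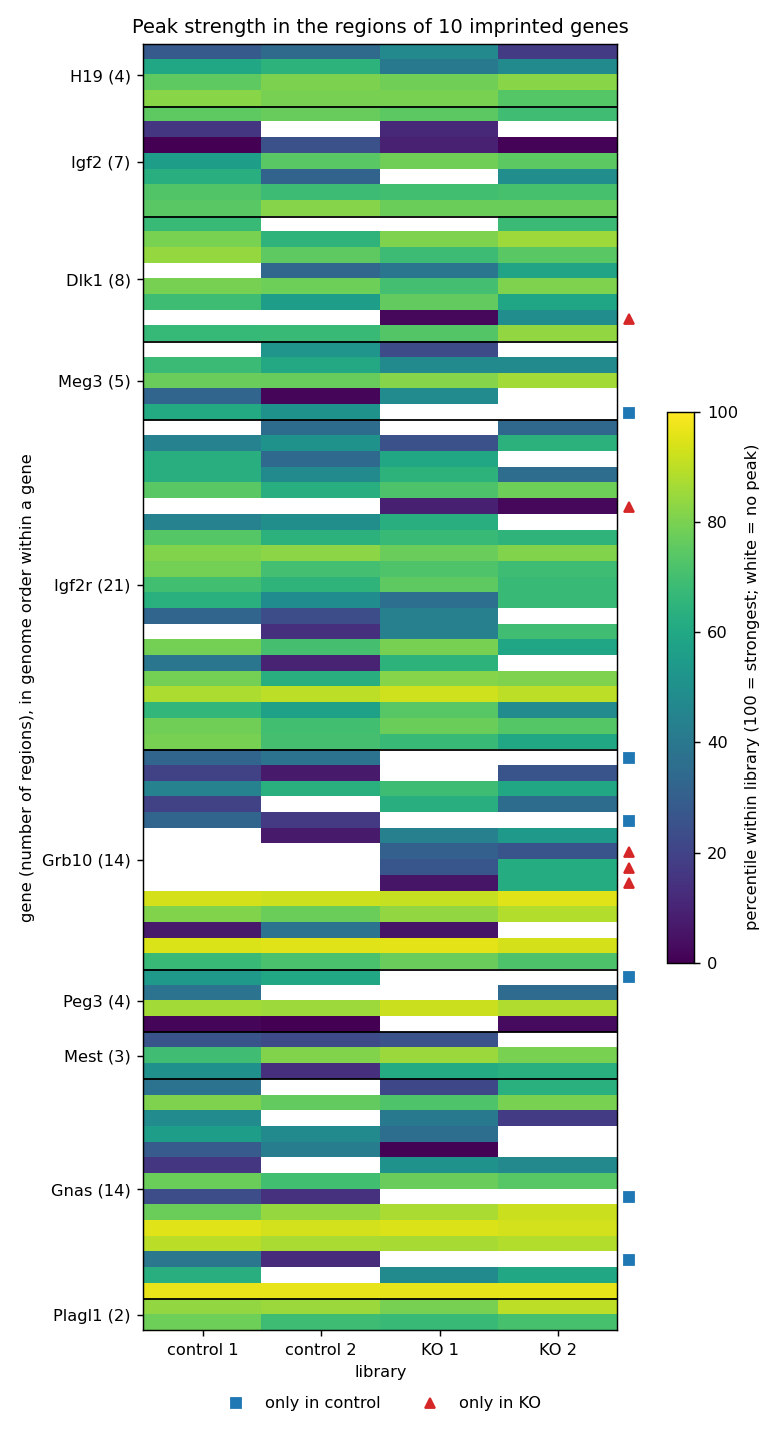
Each row is 1 of the 82 regions found in at least 2 libraries, grouped by gene and in genome order, and each column a library (control 1, control 2, KO 1, KO 2). Color gives the percentile of the region's strongest −log10 p among all peak intervals of that library (100 is strongest, white is no peak), blue squares mark the 6 regions only in control and red triangles the 5 only in KO, 3 of which lie in Grb10.

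Peak strength was compared as a percentile, the place of a region's highest −log10 p among all peak intervals of its own library. The lists differ in length, and the percentile does not remove this. A library that lists more weak peaks places a shared region higher, so ranks among shared regions alone are given at the end. Over the 46 regions in all 4 libraries the median percentile was 77.4 and 70.5 in the controls, against 76.5 and 74.3 in KO. The mean KO percentile minus the mean control percentile had a median of -0.13 points, against 0.31 over all regions. The middle of the distribution ran from -3.67 to 4.99 points between quartiles, against -3.52 to 4.27. Both KO libraries ranked below both controls in 6 regions (13%, background 15.4%) and above both in 11 (23.9%, background 22.0%), and in 29 the genotypes overlapped. The spread between libraries of the same genotype was of the same order. The median absolute difference was 6.56 points between the controls, 4.68 between the KO libraries and 3.98 between genotype means. With 2 libraries against 2 the smallest two-sided exact permutation p is 0.33, so no region was tested.

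**Figure D2:**
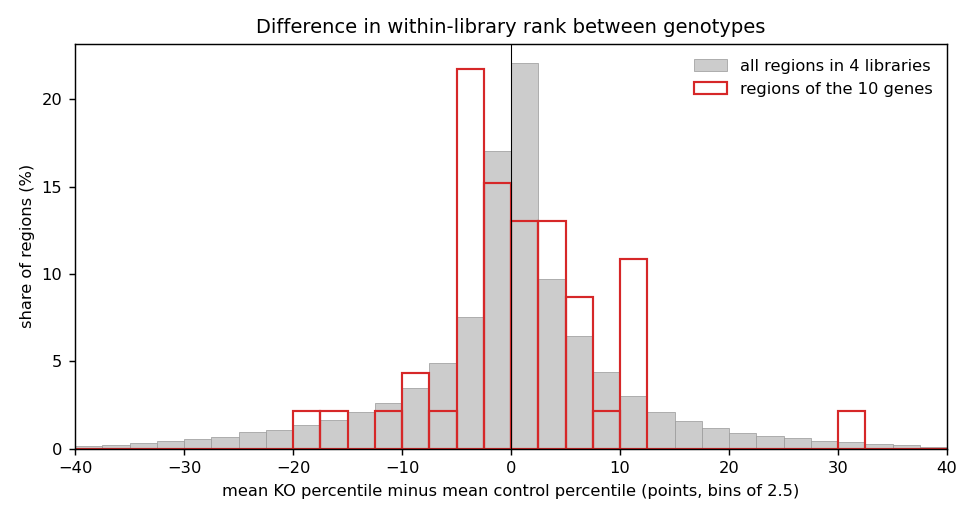
Share of regions (percent, vertical axis) by KO minus control percentile (points, horizontal axis, bins of 2.5) for the 46 member regions in all 4 libraries and for all such regions. Both sets center near 0, with medians of -0.13 and 0.31, and the members run from -18.21 to 30.64.

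The genes were ordered by their strongest region, taken as the one whose lowest percentile over the 4 libraries was highest, and by that lowest value. Gnas stood first, with 96.1 to 96.7 over the 4 libraries, all above Grb10, with 93.6 to 96.0, which in turn lay above Igf2r, with 87.6 to 92.6. Below Igf2r each gene's range overlapped that of the next: Peg3 had 85.3 to 91.8, Plagl1 79.3 to 90.2, Meg3 76.7 to 86.1, H19 75 to 82.3, Igf2 74.5 to 81.9, Dlk1 70.3 to 80.8 and Mest 69.5 to 84.8. The order of neighbors among these lower genes depends on the rule and is not a difference between them. Genes further apart could differ, as Peg3 lay above H19, Igf2, Dlk1 and Mest in every library. Only 4 member regions (8.70%) had a percentile over 90 in all 4 libraries, against 17.1% of all regions, and these were 2 of Gnas and 2 of Grb10.

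**Figure D3:**
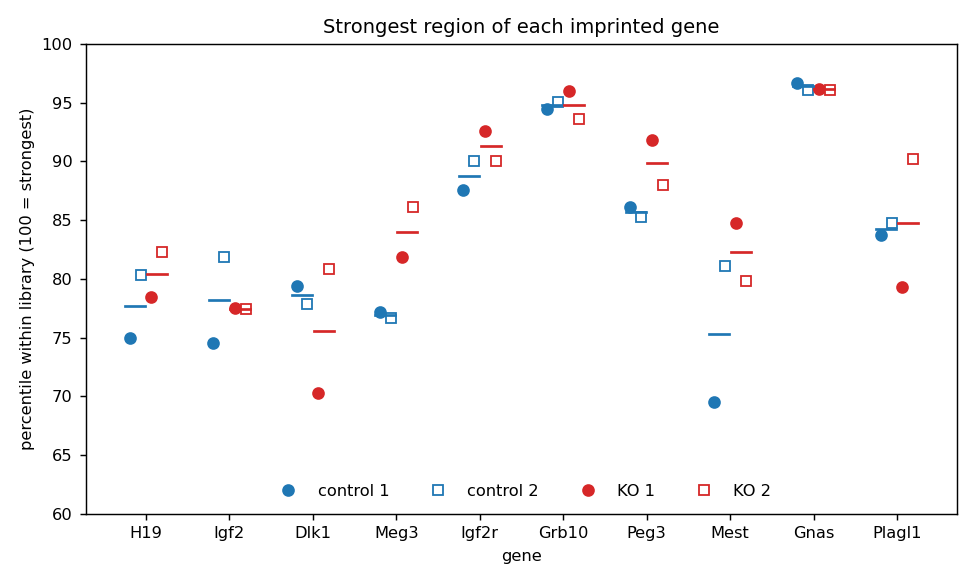
Percentile (vertical axis, drawn from 60 to 100) of each gene's strongest region in the 4 libraries, 1 point per library, with controls and KO in separate colors. At Peg3 and Meg3 both KO points lie above both control points, at Igf2r they do so with control 2 and KO 2 nearly equal, and in the other 7 genes control and KO points overlap.

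H19 is a maternally expressed non-coding RNA and the host of miR-675, and the DNA on its Igf2 side carries the control region at which CTCF insulates the maternal Igf2 from enhancers shared with H19. No library had a peak inside the H19 gene body (chr7:142575530-142578146), and 4 regions flanking it were found in all 4 libraries. On the Igf2 side, the region at chr7:142580222-142581014, 2076 bp beyond the gene, had percentiles of 75 and 80.3 in the controls, against 78.5 and 82.3 in KO. Its fold enrichment over background was 5.48 and 7.26 in the controls and 5.60 and 6.76 in KO. The neighboring region at chr7:142581691-142582132 had 82.2 and 79.3 against 79.7 and 73.7. Control and KO values overlapped in both regions of the control-region side, but the latter was lower in KO without overlap under 3 of 5 other settings, with 60.5 and 58.7 against 53.4 and 44.5 when only shared regions were ranked. On the other side of the gene, the region at chr7:142571960-142572182 had 60.1 and 64.6 in the controls and 40.3 and 48.0 in KO, a difference of -18.21 points with no overlap. By this ranking it was the largest fall among the members, whereas larger falls were found in Meg3 when ranked by fold and in Igf2r when only shared regions were ranked.

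Igf2, the paternally expressed insulin-like growth factor, had 5 regions in all 4 libraries in its window (gene body chr7:142650768-142666816). The region over the start shown above, chr7:142658679-142659646, had 75.2 and 76.7 in the controls and 74.7 and 69.4 in KO, a difference of -3.86 points. Both KO libraries lay below both controls, but the nearest values were 74.7 and 75.2. Within the gene, chr7:142663886-142664337 went the other way, with 55.8 and 74.6 in the controls and 78.3 and 74.8 in KO, and the low control 1 value set most of the difference of 11.32 points. The strongest region, chr7:142675748-142675970, lay 8932 bp upstream and overlapped between genotypes, with 74.5 and 81.9 against 77.5 and 77.4. No Igf2 or H19 region was found in both libraries of a genotype and in neither of the other, though 17 Igf2 and 2 H19 regions were in a single library. When a peak had to cover at least 0.5 of the merged region, Igf2 142660544 counted as found only in control.

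Dlk1, the paternally expressed transmembrane ligand of the Delta family, and Meg3, the maternally expressed non-coding RNA downstream of it, share a cluster on chromosome 12. The strongest Dlk1 region by its lowest percentile, chr12:109453052-109453908, lay within the gene, 229 bp after the start shown above, and had 79.4 and 77.9 in the controls and 70.3 and 80.8 in KO, which overlapped. No peak of any library touched the promoter window shown above. Upstream of Dlk1, a pair of close regions went in opposite directions. The region at chr12:109445881-109446359 had 79.7 and 64.9 in the controls and 80.7 and 85.3 in KO, 10.66 points higher, and the one at chr12:109446467-109446696 had 84.2 and 75.1 against 68.5 and 74.5, or -8.13 points. Downstream, chr12:109467542-109467779 had 66.8 and 67.6 in the controls and 73.3 and 83.9 in KO, a difference of 11.37 points.

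At Meg3 the promoter itself had a peak in control 1 alone, weak at a percentile of 41.1. The strongest Meg3 region lay 1759 bp after the start, at chr12:109542755-109543223, with 77.2 and 76.7 in the controls and 81.9 and 86.1 in KO, 7.02 points higher. The only other region of all 4 libraries, chr12:109531419-109531662, lay 9334 bp upstream toward Dlk1 and was lower in KO, with 68.3 and 60.3 against 47.7 and 48.0, a difference of -16.45 points. Meg3 thus had 1 region of each direction, and neither genotype was higher across its window. Meg3 also had more regions in the controls, 14 and 9, than in KO, 9 and 6, though KO 1 equaled control 2. Of its 28 regions, 23 were in a single library and 1 was only in control. Over the whole peak set there were 172740 and 152879 regions in the controls and 168591 and 163574 in KO.

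Igf2r and Grb10 both act on the insulin-like growth factor pathway, Igf2r as the receptor that carries IGF2 to the lysosome and Grb10 as an adaptor that dampens signaling from the insulin and IGF1 receptors. Igf2r (chr17:12682406-12769706) had the most regions, 41 in any library and 14 in all 4, with 24, 24, 23 and 24 per library in the order control 1, control 2, KO 1, KO 2. Its start region, chr17:12769059-12770106, had 78.2 and 69.7 in the controls and 77.6 and 73.7 in KO. The strongest, chr17:12754418-12755512, had 87.6 and 90.0 against 92.6 and 90.0, 2.52 points higher, with control 2 and KO 2 nearly equal. The region at the start of Airn, the antisense RNA that silences the paternal Igf2r, chr17:12741168-12741933, had 79.2 and 70.4 in the controls and 79.3 and 58.8 in KO and overlapped.

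Of the other Igf2r regions, chr17:12745781-12746260 was higher in KO, with 79.2 and 62.6 against 81.8 and 80.8, although it counted as found only in control when a peak had to cover at least 0.5 of the merged region. The region chr17:12713911-12714825 was lower, with 81.1 and 82.6 against 77.3 and 81.0. Far upstream, 9699 bp from the start, chr17:12779405-12779763 had 79.3 and 70.6 in the controls and 67.2 and 60.0 in KO, or -11.34 points. Igf2r had 2 regions lower and 2 higher in KO, with a median difference of -2.69 points over its 14. Regions of Igf2r with a −log10 q of at least 5 numbered 11 in each of control 1, control 2 and KO 1 and 5 in KO 2, the library with the lowest share of such summits.

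Grb10 (chr11:11930499-12037428) held the second strongest region of the members, chr11:12025403-12026642, inside the gene and 1329 bp after an internal listed start. Its percentiles were 94.5 and 95.1 in the controls and 96.0 and 93.6 in KO, and its fold enrichment 16.1 and 19.3 against 18.1 and 13. A second strong region, chr11:11973279-11973872, had 93.5 and 92.5 against 91.3 and 95.3. Neither differed beyond the spread between libraries. The start shown above lay in chr11:12036399-12038041, with 67.8 and 71.2 in the controls and 77.1 and 71.9 in KO, 4.99 points higher, with control 2 and KO 2 nearly equal. The region chr11:11974951-11975236 was higher in KO, with 81.2 and 77.7 against 83.8 and 88.6.

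**Figure D4:**
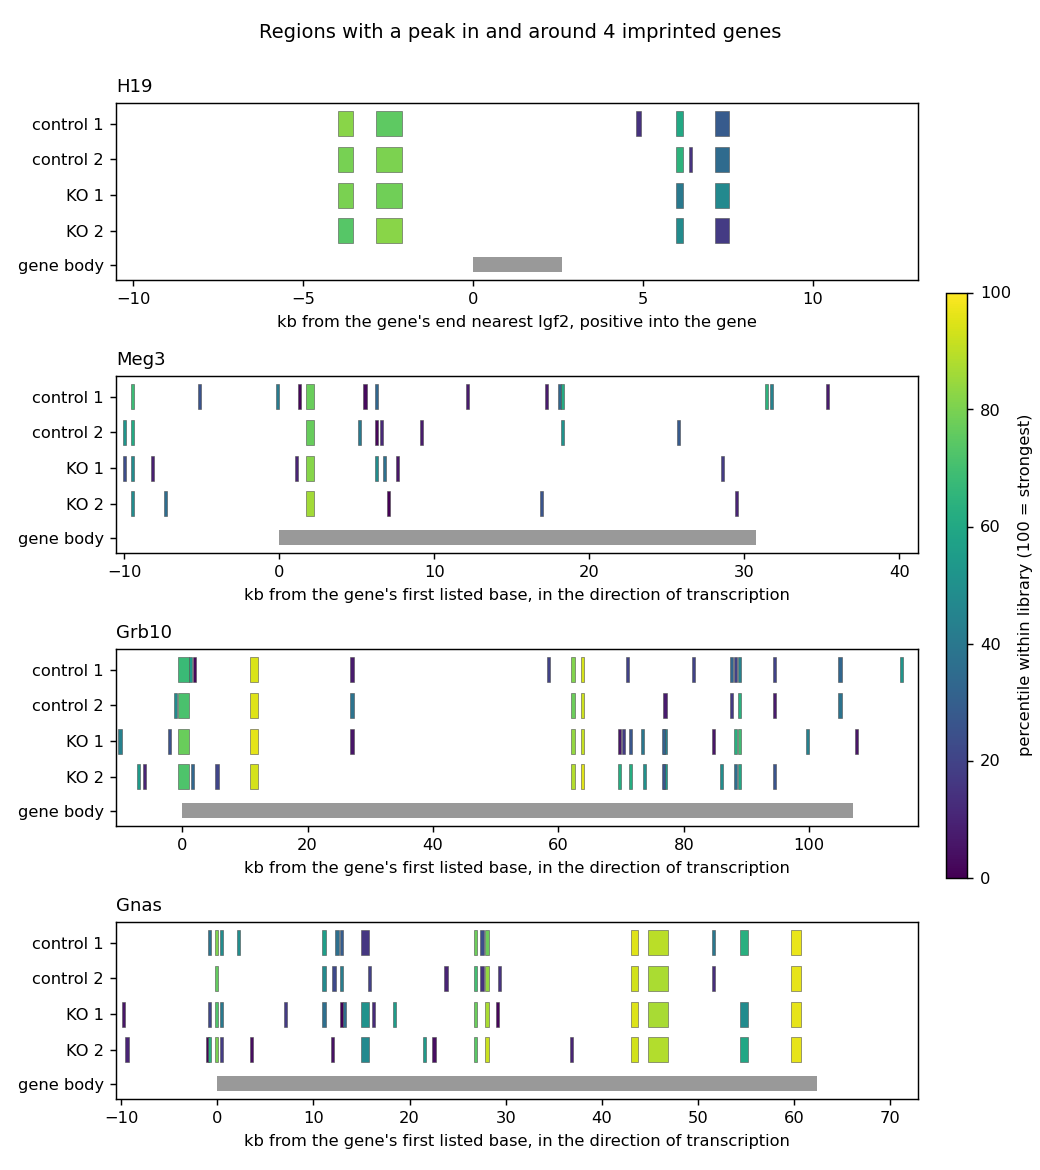
All regions around H19, Meg3, Grb10 and Gnas, those of a single library included, against distance in kb from the gene's start (for H19 from its end nearest Igf2). There is 1 line per library, colored by percentile. Short regions are drawn at a minimum width so that they can be seen. The strong Grb10 and Gnas regions recur in all 4 libraries, whereas 3 weak Grb10 regions appear in both KO libraries and in neither control. The reverse holds for 2 regions of Grb10, 1 of Meg3 and 2 of Gnas.

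Grb10, at 107 kb the longest member, had the most regions of a single genotype. Of its 14 regions in at least 2 libraries, 2 were only in control (background 6.05%) and 3 only in KO (background 3.47%). With counts this small, this is not a result about the gene. Only in KO were chr11:11960679-11960760, with percentiles of 30.8 and 25.8, chr11:11965759-11966063, with 26.8 and 61.8, and chr11:11967563-11967677, with 5.78 and 61.8. All 3 lay inside or next to the non-coding gene LOC102631979, which is annotated within Grb10. Only in control were chr11:11932372-11932673, with 32.5 and 37.9, and chr11:11949752-11949865, with 32.5 and 17.0.

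Peg3, Mest and Plagl1 are paternally expressed, Peg3 and Plagl1 as zinc finger proteins that regulate transcription and Mest as a hydrolase-like protein of the endoplasmic reticulum. Peg3 (chr7:6703892-6730462) had 5 and 4 regions in the controls and 1 and 3 in KO, of 6 in any library, 2 of them in a single library. The only region in all 4 libraries, chr7:6729270-6730026, lay 393 bp after the start and was higher in KO, with 86.1 and 85.3 against 91.8 and 88.0, a difference of 4.22 points. Its fold enrichment was 9.56 and 10.1 in the controls and 12.2 and 9.22 in KO, which overlapped as raw values but not once ranked within each library. The window of the start itself held only chr7:6730155-6730374, a region at the bottom of the lists, with 1.64 and 0.0142 in the controls, 2.78 in KO 2 and no peak in KO 1. Nearby, chr7:6727421-6727911 was found only in the controls, at 54.2 and 59.8.

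Mest (chr6:30733506-30748466) had the largest single difference of the members by this ranking, but not when only shared regions were ranked. At the start shown above, chr6:30737909-30738406 had percentiles of 50.0 and 13.7 in the controls and 61.4 and 63.6 in KO, or 30.64 points, and the low control 2 value set most of it. When a peak had to cover at least 0.5 of the merged region, the same region counted as found only in control. The stronger region 587 bp upstream of that start, chr6:30736808-30737463, had 69.5 and 81.1 against 84.8 and 79.8 and overlapped. Plagl1 (chr10:13090832-13131694), known to act on the other imprinted genes, had only regions that overlapped between genotypes. Its start region, chr10:13090398-13091355, had 77.8 and 68.8 in the controls and 67.9 and 70.8 in KO, and chr10:13087284-13087535, 3297 bp upstream, had 83.7 and 84.8 against 79.3 and 90.2.

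Gnas encodes the stimulatory G protein alpha subunit and, from alternative starts, several imprinted products. Its strongest region, chr2:174343961-174345046, had 96.7 and 96.1 in the controls and 96.2 and 96.1 in KO, with fold enrichments of 16.9 and 15.2 against 14.0 and 13.6. The region at a pair of internal starts, chr2:174327307-174328071, had 95.3 and 93.2 against 94.7 and 93.0, and the one at the next start, chr2:174329106-174331151, had 89.5 and 87.2 against 86.8 and 88.4. The first listed start lay in chr2:174284075-174284369, with 80.7 and 76.0 in the controls and 72.3 and 79.9 in KO. Every start region of Gnas named here overlapped between genotypes by this ranking. With a −log10 q of at least 5, those at the first listed start and at chr2:174329106-174331151 were lower in KO without overlap. One region of Gnas was higher in KO, chr2:174312237-174312494, with 77.7 and 84.2 against 87.4 and 92.0, or 8.75 points.

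The 11 regions found only in a genotype were of low to middle rank. They belonged to 6 genes, had percentiles from 2.04 to 61.8 with a median of 31.7, and fold enrichments from 2.07 to 4.34, and their highest −log10 q was 5.57. Besides those of Grb10 and Peg3, the control-only regions were chr12:109559235-109559347 in Meg3, with 61.2 and 50.8, and chr2:174311787-174311917 and chr2:174335864-174336006 in Gnas, with 23.5 and 14.4 and with 39.6 and 12.8. The remaining KO-only regions were chr12:109460090-109460184 in Dlk1, with 2.04 and 49.1, and chr17:12693215-12693350 in Igf2r, with 8.97 and 2.17. Whether their absence from the other genotype was a matter of depth was not tested.

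Wider sets of related genes were counted the same way. Of 40 other imprinted genes listed, 39 were matched, and outside the members' windows they had 290 regions in at least 2 libraries, 153 of them in all 4 (52.8%). Only in control were 13 (4.48%) and only in KO 12 (4.14%), and of the 153, 27 were lower (17.6%) and 35 higher (22.9%) in KO without overlap. The background shares over all regions are 58.4% in all 4 libraries, 6.05% only in control, 3.47% only in KO, 15.4% lower and 22.0% higher. Outside the members' windows, 34 of the 39 genes had a region in all 4 libraries, and Ins2, Zim1, Nespas, Hymai and Snrpn did not. The 10 genes listed for insulin and IGF signaling were Igf1, Igf1r, Insr, Irs1, Irs2, Igfbp3, Igfbp4 and the RNA-binding Igf2bp1, Igf2bp2 and Igf2bp3. They are a chosen list and not the whole pathway. Together they had 138 regions, 69 in all 4 (50.0%), 12 only in control (8.70%) and 3 only in KO (2.17%). These are to be read against the same background shares. Of the 69, 5 were lower (7.25%) and 16 higher (23.2%). Igf1r, the receptor through which IGF2 drives growth, had 49 regions in at least 2 libraries, 4 only in control and 0 only in KO.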

How the data were processed

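Deposited peak lists of 4 ATAC-Seq libraries, 2 control and 2 KO, were used. Per the submitters' processing notes, the tools were Bowtie2 and MACS2 and the build mm10, and their versions are not given in the sources used here. The authors deposited, per summit, a fold enrichment (a ratio over background) and −log10 p and −log10 q values, and the lowest −log10 p listed was 2.00. No read counts were used, so depth is unknown.

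Peaks of autosomes and X were merged across libraries at 1 bp overlap, assigned to genes by RefSeq (GRCm38.p6) gene ends with 10 kb on either side, and ranked within each library. The gene table gives no exons, so regions are placed only as inside or outside a gene. The scripts were tested on simulated peaks. The members and lists were chosen with earlier results of these data known. Named by rule were each gene's start region, its strongest region and the regions of a single genotype, and regions whose ranks did not overlap, with their neighbors, were named after their values were seen. Alternatives changed the peak threshold, overlap, window and ranking.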

Additional observations from a re-analysis of the deposited data

How the results depend on the processing

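Counts are given with the members' share and, after the slash, the share of all regions. With a −log10 q of at least 5 required, 27 regions were in all 4 libraries (69.2% / 67.6%), 1 in the controls alone (2.56% / 7.02%) and 0 in KO alone (0% / 0.807%), and 8 were lower (29.6% / 32.2%) and 3 higher in KO (11.1% / 7.29%), which turned the balance of 6 lower and 11 higher. The median difference was then -3.75 points, against -3.23 over all regions. With the 100000 strongest summits of each library, 26 were in all 4 (74.3% / 72.1%), 1 in the controls alone (2.86% / 2.76%) and 0 in KO alone (0% / 3.11%). There 5 were lower (19.2% / 14.8%) and 6 higher (23.1% / 25%). The region in the controls alone was Meg3 109531419 with the q limit and Igf2r 12779405 with the strongest summits. Both were in all 4 libraries in the full lists. With a cover of at least 0.5 of the region required, 25 were in all 4 (37.9% / 39.6%), 10 only in control (15.2% / 11.3%) and 5 only in KO (7.58% / 3.89%). There 6 were lower (24.0% / 14.1%) and 5 higher (20% / 23.6%), which also turned the balance. With windows of 5 kb, 3 were lower (7.5% / 15.4%), and with the gene body alone, 2 (6.06% / 15.4%).

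Leaving out a library in turn gave 9 to 40 regions only in control, 8 to 37 only in KO, 9 to 19 lower and 19 to 25 higher. A genotype left with 1 library meets each rule more easily. In this paragraph, shares of regions only in a genotype are over regions found in any library. The same shares elsewhere are over regions in at least 2 libraries and cannot be set beside them. Without control 1 and without control 2, regions only in control numbered 29 (16.8% / 15.8%) and 40 (22.1% / 20.6%), and without KO 1 and KO 2 those only in KO numbered 37 (21.8% / 21.5%) and 37 (21.5% / 21.2%). Without KO 1, 15 were only in control (8.82% / 6.11%), and without control 1 and control 2, 10 (5.78% / 3.06%) and 8 (4.42% / 2.80%) were only in KO. Lower were 9 without control 1 (17.6% / 23.5%) and 19 without control 2 (35.8% / 34.1%). Higher were 19 without control 2 (35.8% / 31.4%) and 25 without KO 2 (43.9% / 42.6%). Only in control were 9 without KO 2 (5.23% / 4.93%).

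Of the 17 regions whose ranks did not overlap, 13 kept this when ranked among shared regions and 16 when ranked by fold. Over 5 list and ranking settings, 3 regions kept the call in all (Gnas 174312237 and Grb10 11974951, higher, and Dlk1 109446467, lower), 3 in 4 and 4 in 3. It was kept in 2 by Mest 30737909, Grb10 12036399, Dlk1 109467542 and Igf2r 12713911, 12745781 and 12754418, and in 1 by Igf2 142663886. Under the cover setting, Mest 30737909 and Igf2r 12745781, both higher in KO, became regions only in control. No paired analysis was possible because the counts and ranks come from no test that a block could enter.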
